A study of Mus musculus with 4 samples.

Results

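The 39 Hox genes of the mouse were examined in embryonic fibroblasts with and without functional Smchd1, cluster by cluster and by position within the cluster. Members were all genes of the deposited table whose symbol is Hox followed by the letter a, b, c or d and a number, which gave 39 of 22691 genes, with 11 in Hoxa, 10 in Hoxb, 9 in Hoxc and 9 in Hoxd. The rule uses symbols and no measured value, though it was set with earlier results of these data known. Polyadenylated RNA had been sequenced from 4 fibroblast cultures of female fetuses at stage E13.5. The 2 control libraries had the genotype Smchd1 +/+ and Xist deltaA/+ (WT), and the other 2 had Smchd1 MD1/MD1 and Xist deltaA/+ (MD1), so all 4 carried Xist deltaA. Mothers were C57BL6/J and fathers were F1 animals of JF1 and C57BL6/J.

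Smchd1 itself had 14.7 FPKM (fragments per kilobase of transcript, scaled to the depth of the library) in WT. In MD1 it had 1.94 FPKM, which is 13.1% of WT. Xist had 22.04 and 26.9 FPKM. Total expression was given as 1 FPKM mean per group, so no Hox value has a spread, an n or a test, and 1 library of a group could set any difference below. The total read depth is unknown. F1 fathers pass on either the JF1 or the C57BL6/J copy of each autosomal region, and no allele-specific value was given for a Hox gene, so alleles at a Hox cluster and the MD1 genotype cannot be told apart. In bulk cultures, fewer cells of a type and less RNA per cell cannot be told apart either. All 10 fibroblast markers were measured, 4 lower and 6 higher in MD1, with log2 ratios from -1.25 for Col3a1 (189 and 78.7 FPKM in WT and MD1) to 1.34 for Fn1 (370.2 and 940.4 FPKM).

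Hox genes encode homeodomain transcription factors that give cells their place along the head-to-tail axis and, for the 5′ genes of Hoxa and Hoxd, along the limb. The genes of a cluster lie in the order in which they are used: paralogue group 1 at the 3′ end serves anterior regions, and group 13 at the 5′ end serves the most posterior and distal ones. Genes of the same number in different clusters are paralogues. Fibroblasts are known to keep the Hox code of the body site they came from, with Polycomb complexes holding unused genes silent, and SmcHD1 is a chromatin protein known to act at Hox clusters as well as on the inactive X.

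The clusters were placed, in mm9 coordinates of the deposited table, at chromosome 6 (Hoxa), chromosome 11, 96055675 to 96229567 (Hoxb), chromosome 15, 102751562 to 102867283 (Hoxc) and chromosome 2, 74506367 to 74603199 (Hoxd). Hoxa genes are on the minus strand and those of the other 3 clusters on the plus strand. The upstream sequences of 3 Hoxd genes are shown first, because Hoxd12 and Hoxd13, neighbours with lower values in MD1, had the lowest ratios of the measured Hox genes, while Hoxd8, in the same cluster, had the second highest after Hoxc10. They are the 250 bases before the transcript start, plus strand, from RefSeq in GRCm38.p6, at chr2:74674763-74675012 for Hoxd12, chr2:74667975-74668224 for Hoxd13 and chr2:74704365-74704614 for Hoxd8. Capitals mark TAAT, the core that many homeodomains bind, and TATAAA, the TATA box, each searched on both strands, so TAAT also appears as ATTA and TATAAA as TTTATA.
Hoxd12: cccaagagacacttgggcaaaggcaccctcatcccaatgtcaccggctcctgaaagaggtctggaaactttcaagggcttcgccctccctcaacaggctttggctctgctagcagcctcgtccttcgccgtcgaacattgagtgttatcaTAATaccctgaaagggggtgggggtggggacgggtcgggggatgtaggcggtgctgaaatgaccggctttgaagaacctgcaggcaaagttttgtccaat
Hoxd13: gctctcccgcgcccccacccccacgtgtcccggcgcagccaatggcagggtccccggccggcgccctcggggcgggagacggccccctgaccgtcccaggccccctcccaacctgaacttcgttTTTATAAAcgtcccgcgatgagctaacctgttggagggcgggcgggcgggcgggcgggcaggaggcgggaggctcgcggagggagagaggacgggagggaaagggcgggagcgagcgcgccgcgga
Hoxd8: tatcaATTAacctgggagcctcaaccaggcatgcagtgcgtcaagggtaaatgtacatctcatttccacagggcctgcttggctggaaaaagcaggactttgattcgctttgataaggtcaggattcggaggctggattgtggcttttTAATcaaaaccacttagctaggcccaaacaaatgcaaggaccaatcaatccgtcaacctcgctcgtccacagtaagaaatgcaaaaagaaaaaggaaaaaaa

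The 3 windows differed in composition. That of Hoxd13 was 74.4% G or C and held 31 CpG dinucleotides, that of Hoxd12 was 55.6% with 10 CpG, and that of Hoxd8 was 44.4% with 6 CpG. TAAT on either strand occurred 1 time before Hoxd12, 2 times before Hoxd8 and 0 times before Hoxd13, whose window held a single TATA stretch that reads TATAAA on both strands by overlap. Of all 32851 RefSeq windows of this length, 54.9% held TAAT and 12.4% held TATAAA. Among 24 windows of the 22 Hox genes with an entry, 18 held TAAT and 4 held TATAAA. These matches describe the letters only.

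Most Hox genes were transcribed in both groups. At 1 FPKM or more there were 34 genes in WT and 32 in MD1, and at 5 FPKM or more 16 and 17. FPKM is scaled by length, so levels of different genes can be set side by side. The most abundant in WT were Hoxc6 (25.8 FPKM), Hoxb9 (25.2), Hoxd13 (18.1), Hoxa5 (17.7) and Hoxa10 (14.8), and in MD1 Hoxb9 (28.1), Hoxc10 (19.8), Hoxc6 (19.1), Hoxa10 (15.1) and Hoxb6 (12.1). Thus high levels were found at the middle, the 5′ side and the extreme 5′ end of a cluster in WT, while Hoxd13 went from rank 3 to rank 9 and Hoxc10 from rank 8 to rank 2 in MD1. Across the 33 Hox genes that averaged 1 FPKM or more, log2 levels in the 2 groups had Pearson r = 0.89 and Spearman rho = 0.91, and across all 11399 genes at that level r = 0.96 and rho = 0.96. With the 6 lowest Hox genes included, both were 0.94. These are descriptions, since all genes come from the same libraries.

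**Figure D1:**
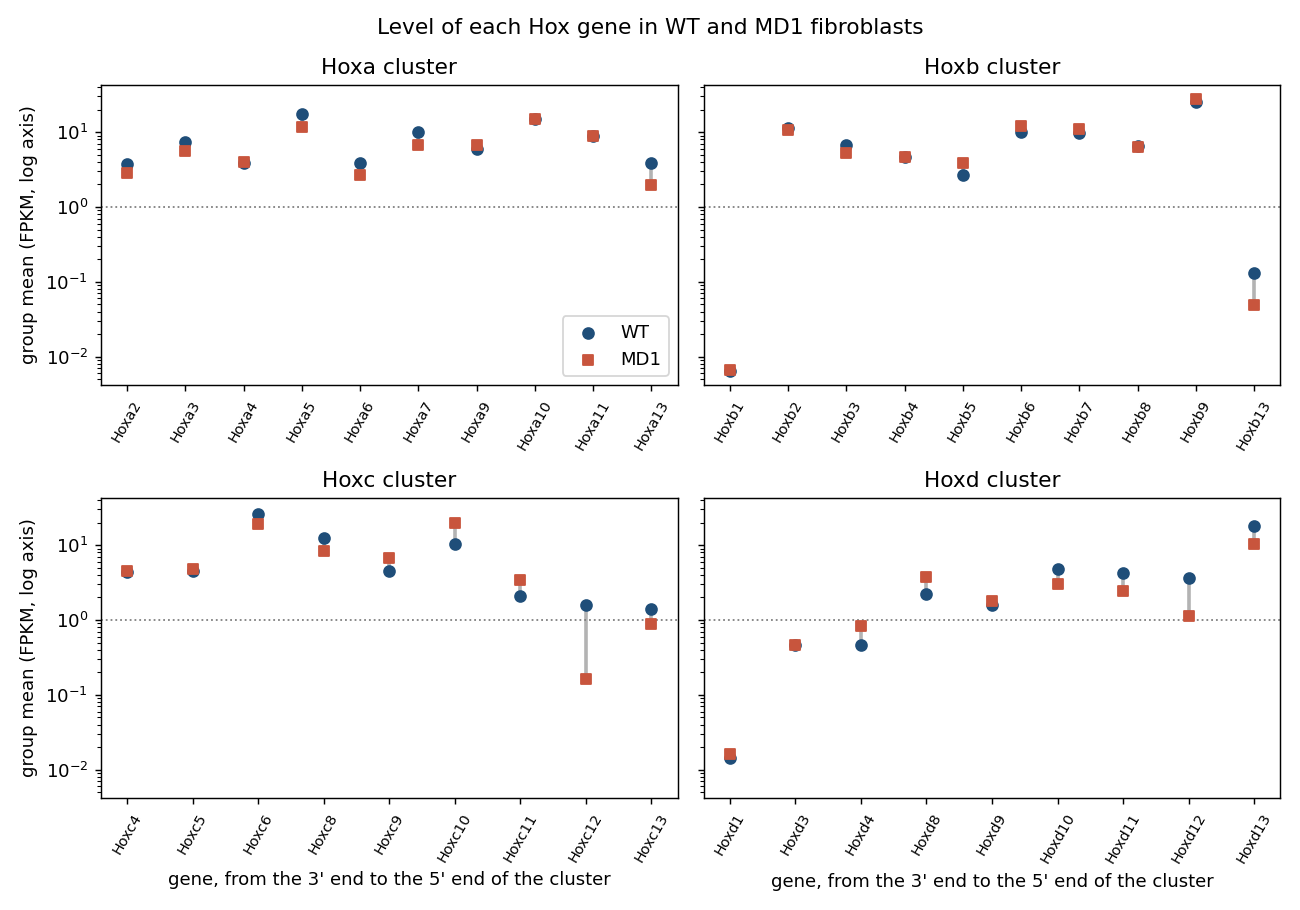
Group mean FPKM (log axis) of 38 Hox genes in WT (circles) and MD1 (squares), from the 3′ to the 5′ end of each cluster, with a dotted line at 1 FPKM and no error bars because 1 mean per group was given. Levels nearly coincide through much of Hoxb, while WT lies above MD1 from Hoxd10 to Hoxd13 and MD1 above WT from Hoxc9 to Hoxc11.

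Differences are given as the log2 ratio of MD1 to WT after adding 1 to each FPKM, a scale that understates the change of low genes. A gene counted as measured when its 2 group values averaged 1 FPKM or more and both were above 0. This held for 33 Hox genes. The other 6 were Hoxc12 (mean 0.871 FPKM), Hoxd4 (0.653), Hoxd3 (0.465), Hoxb13 (0.0899), Hoxd1 (0.0153) and Hoxb1 (0.00649). Hoxc13, at 1.15 FPKM, lay just inside the bound through its WT value.

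As a family, the Hox genes were balanced. The median log2 ratio of the 33 measured genes was -0.010 (0.013 with quantile normalization), with 17 below 0 and 16 above. All 11399 measured genes had a median of 0.0058, with 49.2% below 0 and 50.8% above. At least 1.5-fold lower in MD1 were 4 Hox genes, Hoxd12, Hoxd13, Hoxa13 and Hoxd11, where 7.65% of all measured genes were. At least 1.5-fold higher was 1, Hoxc10, where 6.05% of all measured genes were. At least 2-fold lower was Hoxd12 alone (2.81% of all), and 0 were 2-fold higher (1.39% of all). Among the 16 Hox genes with a mean of 1 to 5 FPKM, 3 were at least 1.5-fold lower, and among all genes of that range 12.2% were. Counts this small are near the shares among all genes, and nothing is read from them about the family. With a pseudocount of 0.1 FPKM in place of 1, 7 genes were at least 1.5-fold lower and 3 higher, where 9.76% and 7.82% of all measured genes were.

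The Hoxd cluster, whose 5′ genes pattern the limb and the hind end of the trunk, had the lowest median, -0.56 over 6 measured genes. The 4 genes at its 5′ end all had lower values in MD1. Hoxd13 (74506367 to 74509656), which acts in digits and the urogenital tract, had 18.1 FPKM in WT against 10.3 in MD1, which is 56.5% (log2 ratio -0.77). Hoxd12 (74513070 to 74515762), its neighbour, had 3.67 and 1.13 FPKM, or 30.7% (-1.14). Hoxd11, which with Hoxa11 patterns the forearm, had 4.21 and 2.46 FPKM (-0.59). Hoxd10, used in the lumbar cord and hindlimb, had 4.82 and 3.04 FPKM (-0.53). Summed, the 4 genes went from 30.8 to 16.9 FPKM, which is 54.7% of WT.

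The 3′ side of Hoxd did not follow. Hoxd9 had 1.58 FPKM in WT and 1.797 in MD1 (log2 ratio 0.12), and Hoxd8 (74542672 to 74545989) had 2.24 and 3.75, or 167% of WT (0.55). Hoxd4 was low, at 0.471 and 0.836 FPKM, and Hoxd3, whose annotated span contains Hoxd4, was at 0.466 and 0.463. Hoxd1 was close to 0 in both groups. Along the 6 measured genes from Hoxd8 to Hoxd13 the ratio decreased towards the 5′ end as far as Hoxd12 (-1.14), while Hoxd13 lay at -0.77. Against paralogue number, Pearson r was -0.90 and Spearman rho was -0.94. Over all their measured genes the other clusters did not show this order. There r was -0.14 over 11 genes in Hoxa, 0.42 over 8 in Hoxb and 0.21 over 8 in Hoxc, and -0.18 over all 33. Those genes cover other paralogue groups than Hoxd8 to Hoxd13, so the r values are not alike in range. At the 5′ end of Hoxa the ratio decreased too, through Hoxa9 (0.17), Hoxa10 (0.023), Hoxa11 (-0.010) and Hoxa13 (-0.70). In Hoxc it increased from Hoxc9 (0.49) to Hoxc10 (0.87), then decreased through Hoxc11 (0.49) to Hoxc13 (-0.37), with Hoxc12 (-1.15) under the filter. Genes of a cluster are neighbours read in the same libraries, so the values describe the order only. Without the filter on FPKM, the 3 low 3′ genes enter and the Hoxd median is -0.0021.

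**Figure D2:**
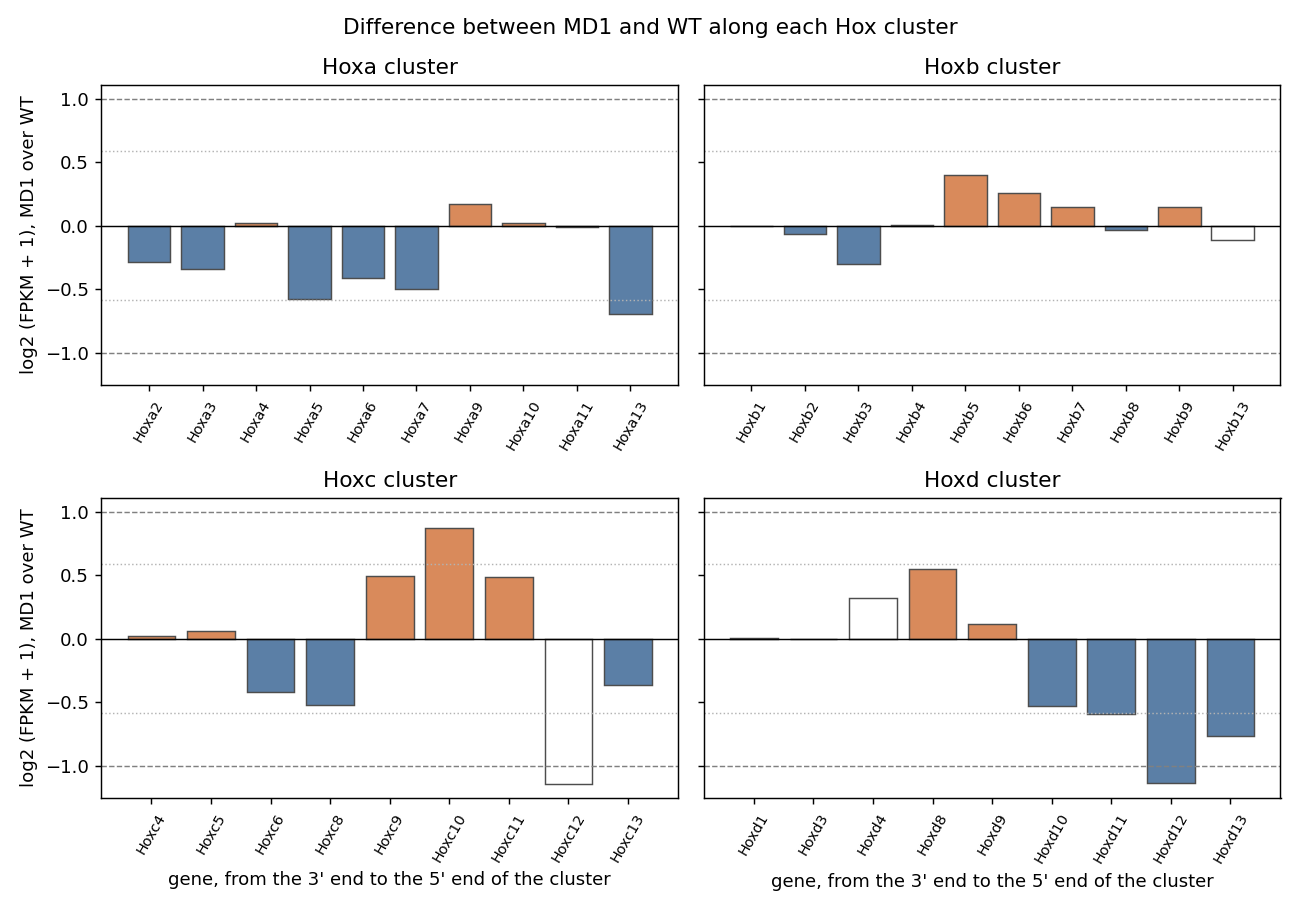
Log2 ratio of MD1 to WT (1 added to each FPKM) for 38 Hox genes, from the 3′ to the 5′ end of each cluster; dashed lines mark 2-fold, dotted lines 1.5-fold, and open bars are genes under the FPKM filter. In Hoxd the sign turns between Hoxd9 (0.12) and Hoxd10 (-0.53). In Hoxc the bars from Hoxc9 to Hoxc11 point up (0.49 to 0.87), and those of Hoxc6, Hoxc8, Hoxc12 and Hoxc13 point down. Hoxc4 (0.019) and Hoxc5 (0.063) lie slightly above 0.

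In Hoxc, a cluster used along the trunk, hindlimb and skin, adjacent blocks went opposite ways. The median over 8 measured genes was 0.041 (0.019 without the filter), and the summed level was 67.3 FPKM in WT and 67.7 in MD1. Hoxc10 (102797227 to 102802328), a gene of the lumbar region and hindlimb, had 10.4 FPKM in WT against 19.8 in MD1, which is 190% (log2 ratio 0.87). Its neighbours Hoxc9, a thoracic gene, and Hoxc11, a hindlimb gene, had 4.50 and 6.74 FPKM (0.49) and 2.12 and 3.37 FPKM (0.49). Summed, the 3 genes had 17.04 FPKM in WT against 29.96 in MD1, which is 176%.

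On either side of that block, values were lower in MD1. Hoxc8, which marks the brachial and thoracic trunk, had 12.6 and 8.45 FPKM (log2 ratio -0.52), and Hoxc6, a gene of the upper trunk, 25.8 and 19.1 (-0.42). At the 5′ end, Hoxc13, which controls hair and nail keratins, had 1.43 and 0.882 FPKM (-0.37). Hoxc12 (102767284 to 102768948), between Hoxc13 and Hoxc11, had 1.58 FPKM in WT against 0.165 in MD1, which is 10.5% (-1.15). It missed the filter, and it is named here for its place in the cluster; such a low value rests on few reads, and how many is unknown. Hoxc4 and Hoxc5, at the 3′ end, were near 4.5 FPKM in both groups, with 4.38 and 4.45 and with 4.49 and 4.74 FPKM.

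In Hoxa, which patterns hindbrain, neck, trunk and limb, 7 of 11 genes were lower and 4 higher, with a median of -0.29 (-0.18 with genes of 5 FPKM or more only). Each of the 11 was measured, and the summed level went from 82.4 to 68.97 FPKM (83.7% of WT). The block Hoxa5 to Hoxa7 had 66.6% of the WT sum. Hoxa5, a regulator of lung and neck skeleton, had 17.7 and 11.6 FPKM (log2 ratio -0.57), Hoxa6 3.83 and 2.64 (-0.41) and Hoxa7 9.997 and 6.80 (-0.50). Towards the 3′ end Hoxa3, needed for thymus and parathyroid, had 7.29 and 5.54 FPKM (-0.34) and Hoxa2, a gene of the hindbrain and branchial arches, 3.73 and 2.87 (-0.29). Hoxa4 had 3.85 and 3.93 FPKM (0.025).

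Further 5′ in Hoxa the groups were close until the last gene. Hoxa9 had 5.89 and 6.77 FPKM (log2 ratio 0.17), Hoxa10 14.8 and 15.1 (0.023) and Hoxa11 8.85 and 8.78 (-0.010). Hoxa13 (52208852 to 52210874), the partner of Hoxd13 in the hand and foot plate, had 3.83 FPKM in WT against 1.98 in MD1, which is 51.7% (-0.70). The span of Hoxa3 in the table runs over Hoxa4, Hoxa5 and Hoxa6, and Hoxa11 overlaps an antisense gene. Whether the counting used strand is not given in the sources used here, so the values of these overlapping genes are uncertain.

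Hoxb, the cluster with the smallest differences by the interquartile range of its ratios (0.22 over 8 measured genes, against 0.48 in Hoxa, 0.87 in Hoxc, 0.68 in Hoxd and 0.42 over all measured genes), had a median of 0.076 (0.0034 without the filter). Its sum was 77.3 FPKM in WT and 82.3 in MD1. Hoxb9, its most abundant gene, had 25.2 and 28.1 FPKM (log2 ratio 0.15), Hoxb6 9.98 and 12.1 (0.26), Hoxb7 9.85 and 10.99 (0.15) and Hoxb5 2.69 and 3.88 (0.40). Hoxb8 had 6.57 and 6.39 FPKM, Hoxb4 4.62 and 4.64, and Hoxb2 11.4 and 10.8. Hoxb3 (6.81 and 5.32 FPKM, -0.30) had the lowest ratio in the cluster. Hoxb1, a hindbrain gene, was at 0.00639 and 0.00658 FPKM, and Hoxb13, far from the others at the 5′ end, at 0.131 and 0.0488. No measured Hoxb gene was 1.5-fold different on this scale. Of all measured genes, 7.65% were at least 1.5-fold lower and 6.05% higher, so few would be awaited among 8 and nothing is read from it.

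Read across clusters, the 5′-most paralogues stood on the lower side. Each of the 6 genes of paralogue groups 12 and 13 had a lower value in MD1: Hoxd12, Hoxd13, Hoxa13, Hoxc12, Hoxc13 and Hoxb13. Hoxc12 and Hoxb13 were under the filter, and Hoxc13 passed it through WT. The sum of the 6 was 28.8 FPKM in WT and 14.5 in MD1, or 50.2%, of which Hoxd13 alone made up the larger part. These 2 groups were set apart after their values were seen. The other 33 Hox genes had 14 lower and 19 higher values, and a sum of 233.8 and 228.3 FPKM. Over the whole table, without a filter, 9513 genes were lower and 8709 higher in MD1.

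Groups 9 to 11, next to them, were mixed. All 4 genes of group 9 (Hoxa9, Hoxb9, Hoxc9 and Hoxd9) had higher values in MD1, with log2 ratios of 0.12 to 0.49, while Hoxc10 (0.87) and Hoxd10 (-0.53) as well as Hoxc11 (0.49) and Hoxd11 (-0.59) went opposite ways. In groups 5 to 7, Hoxb5, Hoxb6 and Hoxb7 were higher where Hoxa5, Hoxa6 and Hoxa7 were lower. In group 8, Hoxd8 (0.55) and Hoxc8 (-0.52) differed in sign. The members of group 4 that were measured differed little, at 0.0065 to 0.025. Counting genes under the filter too, paralogues had the same sign in groups 2 to 4, 9, 12 and 13, though in groups 3 and 4 some ratios were 0.025 or less in size, and both signs occurred in groups 5 to 8, 10 and 11.

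**Figure D3:**
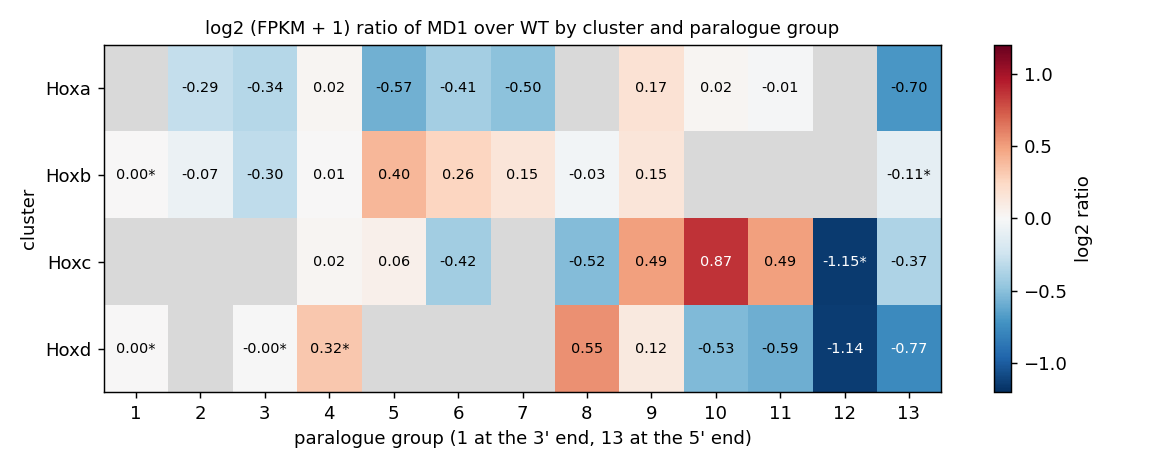
Log2 ratio of MD1 to WT (1 added to each FPKM) by cluster (rows) and paralogue group (columns), with blue for lower and red for higher in MD1, grey where no gene is shown and an asterisk for genes under the FPKM filter. Columns 12 and 13 are blue in each cluster with a gene there (-0.11 to -1.15), while columns 10 and 11 hold both colours.

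By position class, medians were close to 0 or moderately negative and hid these opposite blocks. Paralogues 1 to 3 had a median of -0.29 (5 measured of 8 genes, 4 lower), paralogues 4 to 8 had 0.013 (14 of 15 genes, 6 lower) and paralogues 9 to 13 had 0.0066 (14 of 16 genes, 7 lower). With 1 added to each FPKM, all 4 genes past 1.5-fold lower and the 1 past 1.5-fold higher were in the last class. Of all measured genes, 7.65% were that much lower and 6.05% that much higher. With a pseudocount of 0.1 FPKM, Hoxa5 (-0.61) and Hoxd8 (0.72) of paralogues 4 to 8 passed 1.5-fold too. The summed level of paralogues 9 to 13 was 111 FPKM in WT and 110.4 in MD1, since lower 5′ Hoxd genes and higher Hoxc genes offset each other. Within this class Hoxd went from 32.4 to 18.7 FPKM (57.6% of WT) and Hoxc from 20.04 to 31.01 FPKM (155%). These medians depended on the filter. Without it, they were -0.035 for paralogues 1 to 3 and -0.060 for paralogues 9 to 13. With genes of 5 FPKM or more only, they were -0.42 for paralogues 4 to 8 and 0.15 for paralogues 9 to 13.

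Other genes inside the clusters were mostly noncoding. Of 9, 3 were measured. Mira, an RNA transcribed between Hoxa6 and Hoxa7, had 20.4 FPKM in WT and 15.3 in MD1 (log2 ratio -0.40), lower like its neighbours. Hoxa11os, antisense to Hoxa11, had 4.36 and 3.01 (-0.42), while Hoxa11 itself was at -0.010. Gm53, between Hoxb13 and Hoxb9, had 9.79 and 11.2 (0.18). Hotair, the noncoding RNA between Hoxc12 and Hoxc11, was low, at 0.220 and 0.112 FPKM.

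Beyond the clusters, 10 of the 24 nearest flanking genes were measured, 6 lower and 4 higher, and 1 differed by at least 1.5-fold. Of all measured genes, 7.65% were at least 1.5-fold lower and 6.05% higher, so nothing is read from this count. The 1 flanking gene was Calcoco1, on the 5′ side of Hoxc, with 19.6 and 10.6 FPKM (log2 ratio -0.84). On the 5′ side of Hoxd, Evx2, a homeobox gene known to share limb enhancers with Hoxd13, had 0.331 FPKM in WT and 0.127 in MD1. Lnp, on the same side and known to share those enhancers too, had 4.95 and 5.89 FPKM (0.21), and Mtx2, past Hoxd1 on the 3′ side, had 34.3 and 43.97 (0.35). On the 5′ side of Hoxa, Hottip, a noncoding RNA known to act on 5′ Hoxa genes, had 0.112 and 0.0424 FPKM, and Evx1 0.0186 and 0.00461. Lnp, the nearest measured gene on that side, was not lower like Hoxd12 and Hoxd13, while Evx2, between Lnp and Hoxd13, was lower but under the filter. The part of shared enhancers in these values was not tested.

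Hox proteins bind DNA with PBC and MEIS partners. Of 9 such cofactor genes, 8 were measured, 6 lower and 2 higher in MD1, with a median log2 ratio of -0.20 (-0.30 with genes of 5 FPKM or more only). Among all measured genes, 49.2% were lower. Meis2 had 20.1 FPKM in WT and 12.8 in MD1 (-0.61), Meis1 10.4 and 7.66 (-0.39) and Pbx2 15.9 and 12.7 (-0.30). Meis2 was the 1 member past 1.5-fold lower, and 0 were 1.5-fold higher, beside 7.65% and 6.05% of all measured genes.

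Among genes that regulate Hox chromatin, 21 of 22 were measured, with a median of 0.18. Of these, 18 were higher and 3 lower, where 50.8% of all measured genes were higher and 49.2% lower. Higher were Cbx2, a reader of Polycomb-marked histone (2.80 and 5.76 FPKM, log2 ratio 0.83), Ezh2, the Polycomb methyltransferase (20.1 and 33.03, 0.69), and Wdr5, a subunit of the opposing MLL complexes (21.9 and 31.6, 0.51). Kdm6b, which removes the Polycomb mark, was lower (13.1 and 9.10, -0.48). Of the 21 genes, 2 were at least 1.5-fold higher and 0 lower, beside 6.05% and 7.65% of all measured genes, so the counts past 1.5-fold are near the background.

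Genes of limb and body position gave both directions: 22 of 28 were measured, 13 lower and 9 higher, with a median of -0.022 (0.0061 with quantile normalization). Among all measured genes, 49.2% were lower. Furthest from 0 was Meox1, a somite gene (3.48 and 0.257 FPKM, log2 ratio -1.83), which passed the filter through its WT value. Next were Grem1, a BMP antagonist of the limb bud (160.2 and 89.6, -0.83), Tbx2 (5.24 and 2.87, -0.69) and Tbx15 (17.2 and 27.9, 0.67). Of genes picked for their limb roles after their values were seen, the forelimb gene Tbx5 had 1.92 FPKM in WT and 1.11 in MD1 (-0.47), and the hindlimb genes Tbx4 and Pitx1 had 2.27 and 3.58 (0.49) and 5.06 and 7.02 (0.41). Shh, the posterior limb signal upstream of 5′ Hoxd genes, had 0.827 and 0.362 FPKM and was under the filter. The part of these differences in those of the Hox genes was not tested.

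Retinoic acid is a known inducer of 3′ Hox genes. Of 17 retinoid genes, 13 were measured, 10 lower and 3 higher, with a median of -0.38 (-0.15 without the filter). Among all measured genes, 49.2% were lower. At least 2-fold lower were 5 retinoid genes, beside 2.81% of all measured genes. The 4 furthest from 0 were the retinaldehyde dehydrogenase genes Aldh1a1 (37.3 and 6.72 FPKM, log2 ratio -2.31) and Aldh1a2 (15.3 and 3.19, -1.96), the retinaldehyde reductase gene Dhrs3 (29.2 and 6.71, -1.97) and the binding protein gene Crabp2 (51.8 and 21.5, -1.23). The receptor gene Rarb, itself a retinoic acid target, had 4.05 and 1.45 FPKM (-1.04).

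**Figure D4:**
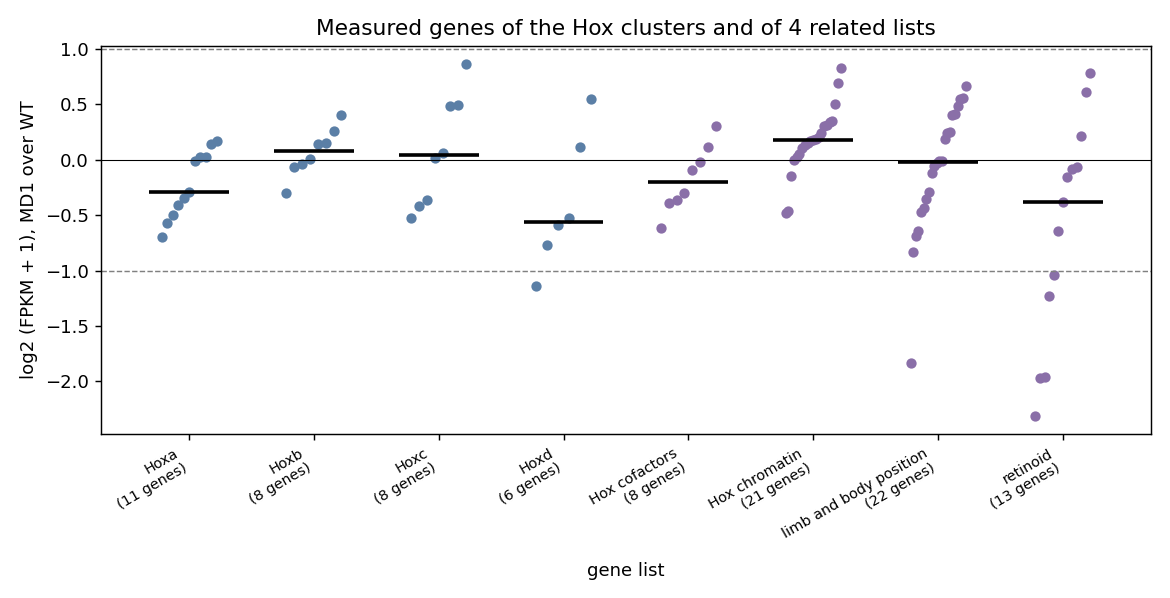
Log2 ratio of MD1 to WT (1 added to each FPKM) of each measured gene (points, sorted within a list) of the 4 Hox clusters and of 4 related gene lists, with black bars for medians and dashed lines at 2-fold. The medians are -0.29, 0.076, 0.041 and -0.56 for Hoxa to Hoxd and -0.20, 0.18, -0.022 (0.0061 with quantile normalization) and -0.38 for cofactors, chromatin, position and retinoid genes.

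Most measured markers of muscle and cartilage had lower values in MD1, where 49.2% of all measured genes did. Of 9 skeletal muscle markers 5 were measured, all lower, and their list summed to 148 FPKM in WT and 41.4 in MD1, with Ttn and Ckm under 0.1 FPKM in both. All 7 smooth muscle markers were lower, with sums of 5778 and 3493 FPKM. Cartilage markers, 4 of 5 measured ones lower, summed to 266 and 129 FPKM, with Matn1 at 0.210 in WT and listed at 0 in MD1. The measured one that was higher was Sox9 (4.41 and 7.10 FPKM, log2 ratio 0.58). Col2a1 (133.2 and 83.9 FPKM) and Col11a1 (122.7 and 36.6) made up most of the sum. Comp and Acan passed the filter through their WT values. Neural markers summed to 37.1 and 62.6 FPKM (2 of 5 lower), blood markers to 120.0 and 103 (4 of 5 lower), endothelial markers to 14.3 and 17.6 (2 of 4 lower) and epithelial markers to 21.1 and 25.1 (1 of 2 lower). The 10 fibroblast markers summed to 6056 and 5568 FPKM. The part of cell composition in the Hox differences, in particular those of the limb genes Hoxd10 to Hoxd13 and Hoxa13, was not tested.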

How the data were processed

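Total expression of 2 WT and 2 MD1 libraries was taken from a single table of 22691 genes. Its FPKM values were deposited by the authors as 1 mean per group, and libraries have no value of their own. Cufflinks 2.2.1, Cuffdiff and the build mm9 are named in the submitters' processing notes without saying what each was used for. Aligner, annotation and use of strand in counting: not given in the sources used here. The labels' protocols name a stranded mRNA kit. Allele-specific columns are filled for X-linked genes and hold 0 values for Hox genes, and were not used.

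Gene starts were counted from 0, since the span equalled the RefSeq length for 9510 genes of 21379 matched by symbol, so 1 was added. Log2 ratios of MD1 to WT were formed after adding 1 to each FPKM, and a gene was measured at a mean of 1 FPKM or more with both groups above 0 (Python 3.11.15, pandas 2.3.3). The calculation was tested on simulated data. limma, planned for values per library, could not be fitted. Members and gene lists (cofactors, chromatin, position, retinoid, cell type markers) were chosen with earlier results of these data known. Named are the Hox genes, genes inside and next to the clusters, and the 4 list members furthest from 0. Values of 1 Hox gene and 1 cofactor gene are not reported here, though counts, sums and medians include them. Other list members in the text (Tbx5, Tbx4, Pitx1, Shh, Rarb, Col3a1, Fn1, Sox9, Col2a1, Col11a1, Comp, Acan), and a choice among the genes next to the clusters, were picked after their values were seen. Alternatives were a pseudocount of 0.1, no filter or a filter at 5 FPKM, and quantile normalization.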

Additional observations from a re-analysis of the deposited data

How the results depend on the processing

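Medians within 0.05 of the reported value and of the same sign were taken as unmoved. With a pseudocount of 0.1 FPKM the medians were -0.37 in Hoxa, -0.70 in Hoxd and -0.35 in paralogues 1 to 3, and 7 Hox genes were 1.5-fold lower and 3 higher. Without a filter on the mean they were 0.0034 in Hoxb, -0.0021 in Hoxd, -0.035 in paralogues 1 to 3 and -0.060 in paralogues 9 to 13, and 2 genes were 2-fold lower, Hoxc12 being added. With a filter at 5 FPKM, which leaves 17 Hox genes, they were -0.18 in Hoxa, -0.77 in Hoxd (Hoxd13 alone), -0.42 in paralogues 4 to 8 and 0.15 in paralogues 9 to 13. At that filter 0 genes were 2-fold lower and 1 was 1.5-fold lower. With quantile normalization they were -0.24 in Hoxa, -0.24 in paralogues 1 to 3 and 0.013 over all 33 genes, with 2 genes 1.5-fold higher. For changes of the filter the cause is the set of genes that enter. A smaller pseudocount enlarges the ratios of low genes by its arithmetic, as for Hoxd12 (-1.14 with 1 and -1.62 with 0.1). For quantile normalization the cause was not tested. A pseudocount cannot change the sign of a ratio, so signs were compared for quantile normalization only. With it, 32 of the 33 single genes kept their sign, the exception being Hoxa11. Each of the 6 genes of paralogue groups 12 and 13 stayed lower with quantile normalization, tried on them after seeing the data. It shifted no measured Hox gene by more than 0.084. The 4 measured genes of these groups lay at -0.37 to -1.14, so nothing is read from their unchanged sign. No paired analysis was possible because 1 mean per group was given, and for the same reason no library could be left out.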
